A study of Mus musculus with 8 samples.

Results

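The genes described here are 10 members of the Nodal and activin pathway: the ligand genes Nodal, Inhbb and Inhbe, the antagonists Lefty1 and Lefty2, the co-receptor Tdgf1, the receptor Acvr2b, the signal transducer Smad3, and the feedback inhibitors Smad7 and Skil. They are 10 of the 55421 genes in the count table, and all 10 passed the filter on low counts that left 15137 genes for testing. The list was chosen by hand for the roles of its genes with their values in all 8 libraries in view, so those values are a description and carry no test of their own. All libraries came from E14 mouse embryonic stem cells, a 129/Ola line, grown on gelatin in serum with LIF. Untreated wild-type cells (WT) and untreated cells whose microRNA cluster, Mir290a to Mir295, was knocked out (KO) formed one set of libraries. The other set held cells that also lack the cluster and were treated for 36 hours with 5 nM of a siPOOL, a mixture of many small interfering RNAs, either against the transcription factor gene Tfap4 (siTfap4) or as a negative control (siNeg). Each of the 4 groups had 2 libraries, stated to be biological duplicates, and each comparison stayed within its own set. The titles of WT replicate 1 and KO replicate 2 share a suffix, CC, which the other titles lack and whose meaning is not given. WT replicate 2 and KO replicate 1 each carry a different suffix of their own, also without a stated meaning. The labels do not say whether the KO cells are 1 clone, and no group with the cluster put back was used here, so the loss of the cluster and other differences between the KO and WT lines cannot be told apart.

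Nodal and activins are secreted dimers of the TGF-beta superfamily that bring type II receptors such as ACVR2B together with type I receptors, which then phosphorylate SMAD2 and SMAD3. Nodal also needs a co-receptor of the EGF-CFC family, of which TDGF1 (Cripto) is the one long studied in mouse embryonic stem cells. LEFTY1 and LEFTY2 are secreted inhibitors whose genes are themselves induced by Nodal signalling, SMAD7 blocks the activated receptors, and SKIL (SnoN) represses transcription by SMAD complexes. In the early embryo the pathway patterns the axes and is needed for mesoderm and endoderm.

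The cluster that the KO cells lack makes microRNAs that share the bases AAGUGC at positions 2 to 7, counted from the 5′ end, so the sequences are shown here beside the sites they can pair with. The RefSeq (GRCm38.p6) list used here held 13 mature microRNAs of the cluster on the plus strand of chromosome 7. For Mir292 it held miR-292a-5p alone, so a microRNA from the other arm of that precursor was not read. Of the 13 listed, 5 carry these bases, with the seed (bases 2 to 8) in capitals below.
miR-291a-3p: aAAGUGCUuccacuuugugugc
miR-294-3p: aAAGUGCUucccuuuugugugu
miR-295-3p: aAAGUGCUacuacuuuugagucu
miR-290a-3p: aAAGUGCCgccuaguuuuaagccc
miR-291b-3p: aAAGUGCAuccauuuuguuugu
The first 3 have the same seed, and the other 2 differ from it in its last base.

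Both Lefty genes hold a match to the shared seed of the first 3 microRNAs, followed by A (an 8mer site), in the 3′ UTR. The sites are shown in GRCm38 on the strand of the gene, with the match in capitals, and the Inhbb site, which lacks the final A (a 7mer site), is given for comparison.
Lefty1, chr1:180938201-180938226, plus strand: cactgtatgcgaAGCACTTAcatgta
Lefty2, chr1:180897905-180897930, plus strand: tcacccagtttaAGCACTTAcatggg
Inhbb, chr1:119416134-119416158, minus strand: gcacaccacaatAGCACTTgcaggt
In all, 6 of the 10 genes held at least 1 site of 7 or 8 bases for the 5 microRNAs in the longest annotated 3′ UTR (the words AGCACTT for the first 3 listed, GGCACTT for miR-290a-3p and TGCACTT for miR-291b-3p): Nodal with 1, Inhbb with 2, Lefty1 with 1, Lefty2 with 1, Smad7 with 1 and Skil with 2. Inhbe, Tdgf1, Acvr2b and Smad3 held none of these words. The search also counted GCACTTA after any other base as a site of 7 bases, a kind that none of the 10 genes held. Among 12780 tested genes with an annotated 3′ UTR, 32.5% held a site of any of these kinds. An 8mer site, here any of the 3 words followed by A, was held by 7.72%. The median length of the 3′ UTR was 1467 bases for the 10 genes and 1157 for all tested genes with one. The part of this length in the shares was not tested. A match is a description of the sequence and was not tested as a site of binding.

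TFAP4 binds E-boxes, the bases CANNTG, with a known preference for CAGCTG, and both were searched on both strands of the promoter windows that RefSeq gave for 6 of the 10 genes (Nodal, Inhbb, Inhbe, Tdgf1, Acvr2b and Smad3). Each window is 300 bases long and lies mostly before the transcript start that RefSeq gives. Of the 6, Inhbe alone held CAGCTG, which 16.3% of 32851 such windows hold, and its window is printed with its 4 matches to CANNTG in capitals, 1 of which is the CAGCTG.
Inhbe, chr10:127351799-127352098, minus strand: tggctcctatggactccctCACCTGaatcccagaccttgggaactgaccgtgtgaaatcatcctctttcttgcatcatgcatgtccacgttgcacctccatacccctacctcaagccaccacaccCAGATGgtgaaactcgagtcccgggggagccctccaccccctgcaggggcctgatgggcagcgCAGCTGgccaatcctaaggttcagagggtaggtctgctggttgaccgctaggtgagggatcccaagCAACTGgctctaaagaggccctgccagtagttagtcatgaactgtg
The RefSeq start used for Inhbe lies inside the span that GENCODE annotates for the gene (127348857 to 127354411, minus strand), so this window is within that span and not at its outer end, unlike the windows of the other 5 genes. The Tdgf1 window held 2 matches to CANNTG, and the windows of Nodal, Inhbb, Acvr2b and Smad3 held none, where 72.3% of all windows hold at least 1. The SMAD-binding element CAGAC occurred 2 times in the Inhbe window and once each in those of Tdgf1 and Acvr2b, against 49.6% of all windows with at least 1. No factor binding was measured in these libraries.

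Depth and labels were checked over the whole table. Total counts per library lay between 8326675 and 12726123. The siTfap4 libraries had the lowest totals, 8326675 and 8829051, against 11395211 and 10795092 in siNeg. They also had the fewest genes detected, 19271 and 19432, against 21083 and 20264 in siNeg. The entries of the deleted cluster on its own strand had 88 and 39 counts in WT and 0 in each of the other 6 libraries. Levels are given as CPM, counts scaled to the size of the library, and a mean ± SD is over n = 2 libraries. Tfap4 had 19.7 and 16.4 CPM in the WT libraries and 45.5 ± 4.91 CPM in KO, and the knockdown libraries had 14.1 ± 2.44 CPM against 35.9 ± 2.06 with siNeg. The summed level of 8 pluripotent stem cell markers was 3138 to 3504 CPM in WT, KO and siNeg libraries and 2279 to 2337 CPM in siTfap4 libraries. The 8 did not move alike. From siNeg to siTfap4 the group means fell for Dppa5a (440 to 6.57 CPM), Nanog, Tdh, Esrrb and Zfp42 (295 to 288 CPM, libraries overlapping). They rose for Pou5f1 (26.4 to 53.7 CPM), Sox2 and Utf1. In bulk libraries such as these, fewer cells of a type and less RNA per cell cannot be told apart.

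Setting KO beside WT cells asks how transcript levels change where the cluster is gone. Both antagonists, the activin subunit genes Inhbe and Inhbb, and Skil were higher in KO cells past the threshold of the fit over all genes (edgeR's quasi-likelihood test, adjusted p of 0.05). Nodal itself, its co-receptor, the receptor and Smad3 were not called. Of the 10 genes 5 were called higher, in a table where 5.99% of tested genes were, and 0 were called lower, where 3.96% were. With an unadjusted p under 0.05 there were 6, and DESeq2 and limma-voom each called 5 as well. The groups did not overlap, with KO higher, for 5 of the genes (28.9% of all tested genes) and, with KO lower, for 1 (28.6%). The median log2 fold change was 0.66 for the 10 genes and -0.01 for all tested genes. Since the genes were chosen with this comparison in view, nothing is read from these counts.

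Lefty1 (ENSMUSG00000038793), a secreted antagonist that binds Nodal and its co-receptor, is on the plus strand, chromosome 1 at 180935022 to 180938400 in GRCm38. It stood at 9.35 and 1.26 CPM for WT, 191 and 209 for KO, 101 and 176 for siNeg and 148 and 212 for siTfap4. Both WT libraries were low and every library of cells without the cluster was far above them. The raw counts behind the WT values were 115 and 13. The fitted difference, KO minus WT, was 5.19 on the log2 scale (SE 0.59), 36.6-fold. It was 7.30 without WT replicate 1 and 4.42 without WT replicate 2, so the size of the fold differed with the WT library kept, and the call held in both cases.

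Lefty2 (ENSMUSG00000066652), the other Lefty gene and likewise an antagonist of Nodal, lies upstream on the same strand at 180893108 to 180899103, 35918 bases before the start of Lefty1. Its level was 20.0 and 11.0 CPM in the WT libraries, 185 and 150.2 in the KO libraries, 114 and 159 with siNeg and 115 and 202 with siTfap4. Again the WT libraries lay far below the other 6, which overlapped one another. The difference was 3.43 (SE 0.34), 10.7-fold, and 3.07 to 3.93 when each library was left out in turn. Of the counts that fell on the pair, Lefty1 took 31.9% (95% Clopper-Pearson interval 27.1 to 36.9) and 10.2% (5.56 to 16.9) in the WT libraries. In the 6 libraries without the cluster its share was between 47.0% and 58.2%. These intervals cover counting error only, and the gap between the WT duplicates exceeded it. The share differed between groups without overlap, WT being lower than each of the others. Of the last 200 bases of Lefty2, 17.5% lay in stretches of 31 bases that also occur in Olfr1286, against 0% for Lefty1. Olfr1286 held 0 counts in every library, and how such reads were counted is not stated.

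Inhbe (ENSMUSG00000047492) encodes the beta E subunit of activin E, best known from liver, and is on the minus strand, chromosome 10 at 127348857 to 127354411. It stood at 0.57 and 0.58 CPM for WT, 30.4 and 25.5 for KO, 36.3 and 36.9 for siNeg and 26.4 and 34.4 for siTfap4. Inhbe was close to absent from both WT libraries, with 7 and 6 counts there against 397 and 309 in KO. The fitted difference was 5.57 (SE 0.40), 47.7-fold, and the ratio of the summed counts had a 95% interval of 28.3 to 92.0 from counting alone. Of its last 200 bases, 40% lay in stretches of 31 bases that also occur in other genes, 2717 of them, so reads there may have been shared or dropped by a counting step that is not stated. Gm47200, a gene annotated over it on the opposite strand, held 0 counts in every library.

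Inhbb (ENSMUSG00000037035) encodes the beta B subunit, found in activin B and inhibin B, and is on the minus strand, chromosome 1 at 119415465 to 119422248. Its level was 58.6 and 57.9 CPM in the WT libraries, 132 and 161 in the KO libraries, 117 and 136 with siNeg and 99.0 and 119 with siTfap4. The WT duplicates were nearly equal and below all other libraries. The difference between KO and WT was 1.33 (SE 0.23), 2.52-fold. It kept its call under each of the 15 alternatives that were run for this comparison, as did those of Lefty1, Lefty2 and Inhbe.

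Nodal (ENSMUSG00000037171), the ligand itself, is on the plus strand, chromosome 10 at 61417972 to 61425338. It stood at 24.3 and 15.0 CPM for WT, 22.4 and 18.8 for KO, 18.8 and 23.8 for siNeg and 21.4 and 21.3 for siTfap4. All 4 groups overlapped, and the WT duplicates spanned the values of the other 6 libraries. The difference between KO and WT was 0.06 (SE 0.29), with -0.24 and 0.46 as the extremes when a library was left out. A change in Nodal RNA was therefore not detectable in these duplicates, which does not show that its level was the same.

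**Figure D1:**
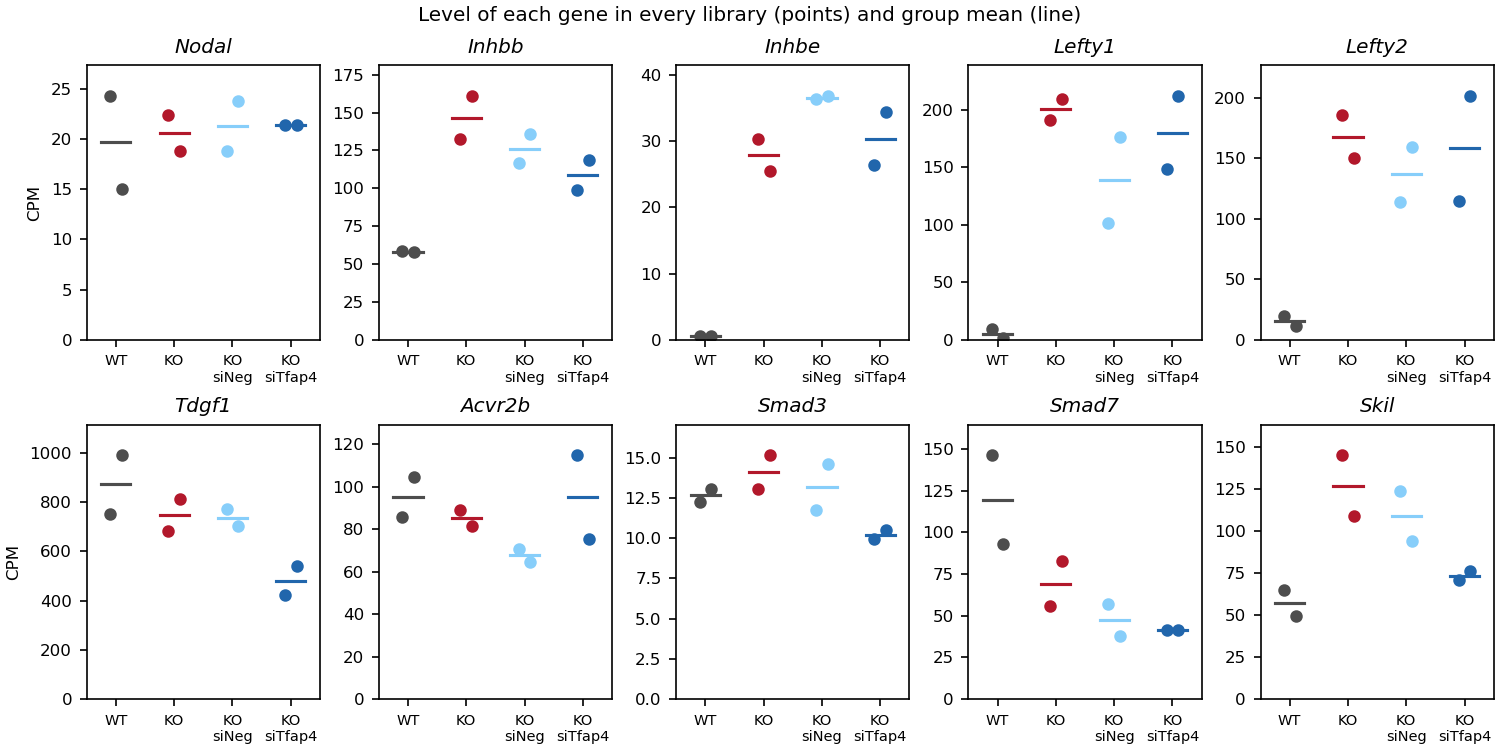
Level of each of the 10 genes in CPM (y axes, each from 0 and on its own scale) in every library (points) and the mean of each group of 2 (lines). Lefty1, Lefty2, Inhbe and Inhbb are lowest in the WT libraries, Nodal overlaps in all groups, and Smad7 is highest in WT.

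Tdgf1 (ENSMUSG00000032494), the Cripto co-receptor that Nodal needs at the cell surface, is on the minus strand, chromosome 9 at 110939603 to 110946158. Its level was 753 and 992 CPM in the WT libraries, 683 and 814 in the KO libraries, 773 and 702 with siNeg and 422 and 541 with siTfap4. The KO and WT libraries overlapped, and the difference was -0.22 (SE 0.24). Acvr2b (ENSMUSG00000061393), a type II receptor for activin and Nodal, is on the plus strand, chromosome 9 at 119402118 to 119434995. It stood at 85.5 and 105 CPM for WT, 89.2 and 81.3 for KO, 70.8 and 64.5 for siNeg and 115 and 75.2 for siTfap4. KO and WT overlapped here as well, with a difference of -0.16 (SE 0.25). Gm47320, annotated over Acvr2b on the opposite strand, held 0 counts in every library.

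Smad3 (ENSMUSG00000032402), which carries the signal from the receptors to the nucleus, is on the minus strand, chromosome 9 at 63646767 to 63757994. Its level was 12.3 and 13.1 CPM in the WT libraries, 13.1 and 15.2 in the KO libraries, 11.7 and 14.6 with siNeg and 9.94 and 10.5 with siTfap4. WT and KO met at their edges, and the difference was 0.16 (SE 0.29).

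Skil (ENSMUSG00000027660), the SnoN repressor of SMAD complexes, is on the plus strand, chromosome 3 at 31095058 to 31122577. It stood at 64.8 and 49.1 CPM for WT, 145 and 109 for KO, 124 and 94.0 for siNeg and 70.6 and 76.3 for siTfap4. Both KO libraries were above both WT libraries. The difference was 1.16 (SE 0.25), 2.23-fold. Its call was lost without WT replicate 2 (0.97) and without KO replicate 1 (0.93).

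Smad7 (ENSMUSG00000025880), the inhibitory SMAD that blocks the activated receptors, is on the plus strand, chromosome 18 at 75367529 to 75395935. Its level was 147 and 93.0 CPM in the WT libraries, 55.9 and 82.6 in the KO libraries, 57.1 and 38.0 with siNeg and 41.7 and 41.3 with siTfap4. It was the 1 gene of the 10 whose KO libraries both lay below both WT libraries. The difference of -0.79 (SE 0.29) was not called at 0.05 and was called at a threshold of 0.1. It was -0.42 without WT replicate 1 and -1.10 without KO replicate 2.

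**Figure D2:**
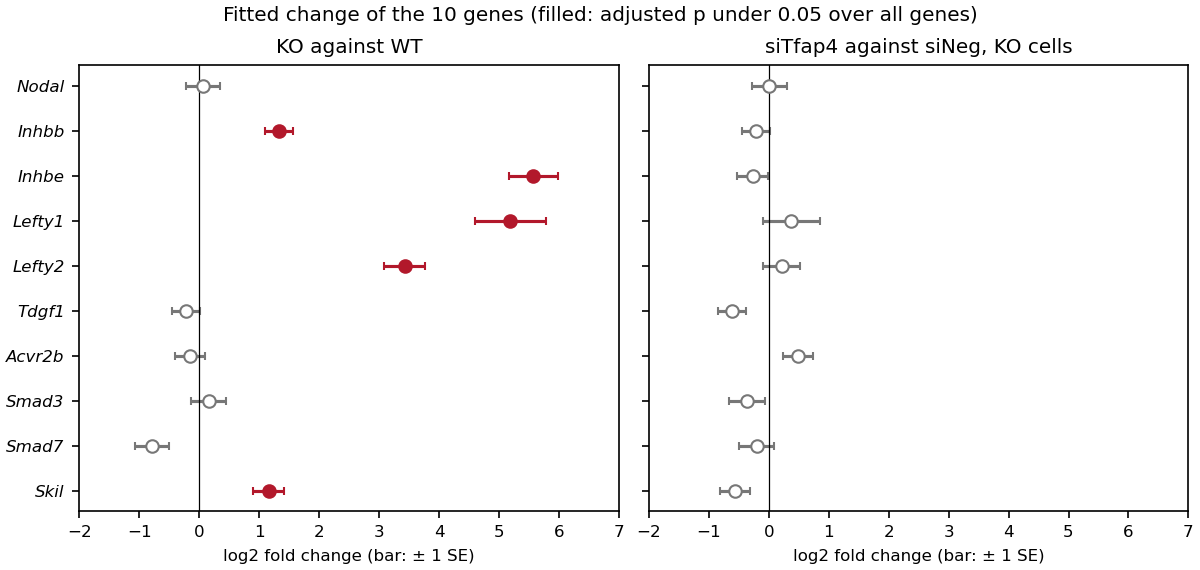
Log2 fold change of each gene, KO minus WT and siTfap4 minus siNeg, with its standard error (bars) from the fit over all genes. Inhbe, Lefty1, Lefty2, Inhbb and Skil were called in the first comparison, and none of the 10 in the second.

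The comparison of siTfap4 with siNeg asks which transcripts differ when Tfap4 is knocked down in cells that lack the cluster. None of the 10 genes passed the threshold: edgeR called 0 higher, where 4.36% of tested genes were, and 0 lower, where 11.1% were. With an unadjusted p under 0.05 there were 2, Tdgf1 and Skil, and DESeq2 and limma-voom also called 0, each with 2 under that p. The groups did not overlap, with siTfap4 higher, for 1 gene (28.9% of all tested genes) and, with siTfap4 lower, for 4 (29.3%). The median log2 fold change was -0.21 for the 10 genes and 0.01 for all tested genes.

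Lefty1, Lefty2, Inhbe and Inhbb were above their WT level in every siPOOL library. The difference, siTfap4 minus siNeg, was 0.38 for Lefty1 (SE 0.47), 0.21 for Lefty2 (SE 0.30) and -0.21 for Inhbb (SE 0.23), each with overlapping libraries. For Inhbe it was -0.27 (SE 0.26), with both siTfap4 libraries below both siNeg libraries by less than the spread of the siTfap4 duplicates. Nodal differed by 0.01 (SE 0.29).

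The 4 genes whose siTfap4 libraries both lay below both siNeg libraries were Tdgf1, Skil, Smad3 and Inhbe. Tdgf1, the co-receptor, differed by -0.61 (SE 0.24), called at a threshold of 0.1 and not at 0.05. With a correction for the base composition of the 3′ end its difference was -0.29. For Skil it was -0.57 (SE 0.25), and for Smad3 -0.36 (SE 0.30), neither of them called. With the same correction Skil differed by -0.27, Smad3 by -0.66 and Inhbe by -0.58, none of them called. Smad7 overlapped, at -0.20 (SE 0.29), and with the correction it differed by 0.10 and Nodal by -0.30.

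Acvr2b alone had both siTfap4 libraries above both siNeg libraries, with a difference of 0.49 (SE 0.25) that was not called. It was called with the correction for base composition (0.98), with that correction and a replicate block (0.94), and without siTfap4 replicate 2 (0.76). The last 100 bases of its transcript are 23% G and C, the lowest of the 10 genes, which reached 47% in Nodal and Inhbe. The part of base composition in the differences of single genes was not tested beyond this correction.

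Across all 4 groups the order of the levels differed between genes. The libraries of Nodal overlapped between all groups, with means of 19.7 ± 6.56 CPM for WT, 20.6 ± 2.54 for KO, 21.3 ± 3.57 for siNeg and 21.4 ± 0.04 for siTfap4. For Lefty1, Lefty2, Inhbe and Inhbb the WT group stood alone at the bottom. Lefty1 then ran from siNeg (139 ± 53.2 CPM) over siTfap4 (180.0 ± 45.2) to KO (200.1 ± 13.4), and Lefty2 from siNeg (137 ± 31.7) over siTfap4 (158 ± 61.4) to KO (168 ± 24.9), with each neighbour overlapping the next. Inhbb ran from siTfap4 (109 ± 13.8 CPM) over siNeg (126 ± 13.2) to KO (147 ± 20.4), and its neighbours above WT overlapped too. Inhbe ran from KO (27.9 ± 3.44 CPM) over siTfap4 (30.4 ± 5.70) to siNeg (36.6 ± 0.39), with KO and siTfap4 overlapping.

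The feedback inhibitors and Tdgf1 had other orders. Skil ran from WT (57.0 ± 11.1 CPM) over siTfap4 (73.4 ± 4.05) to siNeg (109 ± 21.2) and KO (127 ± 25.8), with overlap between siNeg and KO only. Smad7 ran down from WT (120 ± 37.8 CPM) over KO (69.2 ± 18.9) and siNeg (47.6 ± 13.5) to siTfap4 (41.5 ± 0.27), and its neighbours below WT overlapped. Tdgf1 ran down from WT (873 ± 169 CPM) over KO (749 ± 92.8) and siNeg (738 ± 50.6), which overlapped as neighbours, to siTfap4 (482 ± 83.8), which stood apart. In Acvr2b the siNeg group (67.6 ± 4.46 CPM) was below the others, and in Smad3 the siTfap4 group (10.2 ± 0.40 CPM) was. The siPOOL libraries were made apart from the untreated ones, so treatment and set cannot be told apart in these orders.

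The rest of the pathway was read from a list of 52 other genes chosen by role, of which 39 passed the filter. In KO against WT 4 were called higher and 3 lower, where 5.99% and 3.96% of all tested genes were. An unadjusted p under 0.05 was found for 10 of the 39 genes and for 3530 of all 15137, with a median log2 fold change of 0.01. Called higher were, among others, the ligand genes Gdf3 and Gdf11 and the co-receptor gene Cfc1. The genes called lower were the ligand gene Tgfb1, the convertase gene Pcsk6 and the feedback gene Pmepa1. By role, 4 of 8 tested ligand and processing genes were called, 0 of 6 antagonists, 1 of 6 receptors and co-receptors, 0 of 5 SMADs and partners, and 1 of 9 repressors and feedback genes. Among the antagonists and among the SMADs and partners, 0 had an unadjusted p under 0.05.

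Gdf3, a ligand that signals through the same receptors and co-receptor as Nodal, stood at 55.4 and 32.2 CPM in WT and 101 and 129 in KO, a difference of 1.39 (SE 0.28, adjusted p = 0.00503). Leaving out WT replicate 2 (adjusted p = 0.0764) or KO replicate 2 (0.0617) ended that call. Gdf11, a ligand that acts through activin receptors, went from 1.31 ± 0.48 to 6.89 ± 1.10 CPM (log2 fold change 2.41, SE 0.44, adjusted p = 0.00223). It was 1 of 4 among the 39 tested pathway genes (10.3%) that held an 8mer site for the family, against 7.72% of tested genes with a 3′ UTR. The others with an 8mer site, Tgfbr2, Zfyve9 and Trim33, were not called, and Gdf3 and Cfc1 held no 7mer or 8mer site. Cfc1 (Cryptic), the other EGF-CFC co-receptor, had 1 and 4 counts in WT and 42 and 33 in KO. Its difference was 3.68 (SE 0.69, adjusted p = 0.00257), 5.01 without WT replicate 2 and 2.91 without WT replicate 1.

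Pcsk6 encodes PACE4, a convertase that cleaves the Nodal precursor, and it fell from 56.0 ± 14.9 CPM in WT to 16.2 ± 1.88 in KO. The log2 fold change was -1.79 (SE 0.27, adjusted p = 0.000569), and the call held with each library left out. Furin, the other Nodal convertase, was not called (0.60, SE 0.26, adjusted p = 0.160). Pmepa1, a TGF-beta-induced inhibitor of the pathway, fell from 122 ± 11.3 to 68.1 ± 12.1 CPM (-0.84, SE 0.23, adjusted p = 0.0316). That call was lost with any 1 of the 4 libraries left out (adjusted p from 0.0799 to 0.350). Tgfb1 fell from 7.67 ± 2.58 to 2.60 ± 0.76 CPM (-1.54, SE 0.42, adjusted p = 0.0281), a call that ended when either KO library (0.0828 for replicate 1, 0.235 for replicate 2) or WT replicate 2 (0.207) was left out.

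In siTfap4 against siNeg 0 of the 39 genes were called higher and 5 lower, where 4.36% and 11.1% of all tested genes were, so the share called lower was near that of the whole table. An unadjusted p under 0.05 was found for 9 of the 39 genes and for 4674 of all 15137, and the median was -0.08. DESeq2 called 6 and limma-voom 5, all lower. The 5 edgeR calls included Bambi, Acvr1b, Tgif1 and Tgif2, and none of the tested ligand and processing genes or SMADs and partners was called by edgeR, with 1 of 8 and 1 of 5 at an unadjusted p under 0.05. Acvr1b, the type I receptor ALK4 through which Nodal and activin signal, stood at 19.4 and 12.6 CPM in siNeg and 2.55 and 4.72 in siTfap4, a difference of -2.13 (SE 0.39, adjusted p = 0.00173). Its call was lost without siTfap4 replicate 1 (adjusted p = 0.0592). Bambi, a pseudoreceptor that inhibits signalling, had 91 and 36 counts in siNeg and 1 and 2 in siTfap4. The ratio of its summed counts was 31.4, with a 95% interval of 10.5 to 154 from counting alone, and the fitted difference was -4.87 (SE 0.76, adjusted p = 0.000419).

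Tgif1 and Tgif2 encode homeobox repressors that bind SMAD2 and SMAD3. Tgif1 stood at 151 and 181 CPM in siNeg and 13.6 and 47.3 in siTfap4, a difference of -2.44 (SE 0.40, adjusted p = 0.00168). Without siTfap4 replicate 2 the Tgif1 difference was -3.60, and without siTfap4 replicate 1 it was -1.81, called in both cases. Tgif2 stood at 54.1 and 66.3 CPM in siNeg and 14.7 and 40.6 in siTfap4 (-1.12, SE 0.35, adjusted p = 0.0432). The Tgif2 call ended when siTfap4 replicate 1 was left out (adjusted p = 0.335), when either siNeg library was (0.124 for replicate 1, 0.164 for replicate 2), with the 4 libraries fitted alone (0.0605) and with the correction for base composition (0.187). Without siTfap4 replicate 2 its difference was -2.04. In both Tgif genes siTfap4 replicate 1 was the lower duplicate.

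The genes of each remaining role with the highest mean count were not called in either comparison. Drap1, a cofactor that restrains Nodal signalling in the embryo, differed by 0.01 (SE 0.23, adjusted p = 0.991) between KO and WT and by -0.01 (SE 0.23, adjusted p = 0.972) between siTfap4 and siNeg. Ppm1a, a SMAD phosphatase, differed by 0.19 (SE 0.21, adjusted p = 0.669) and 0.13 (SE 0.21, adjusted p = 0.725). Otx2, a homeobox gene of the anterior embryo, differed by -0.56 (SE 0.30, adjusted p = 0.289) and -0.09 (SE 0.31, adjusted p = 0.867). Inhba, Gdf1, Mstn, Cer1 and Acvr1c held 0 counts in all 8 libraries, so the activin A subunit, the antagonist Cerberus and the type I receptor ALK7 were not detected at this depth.

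**Figure D3:**
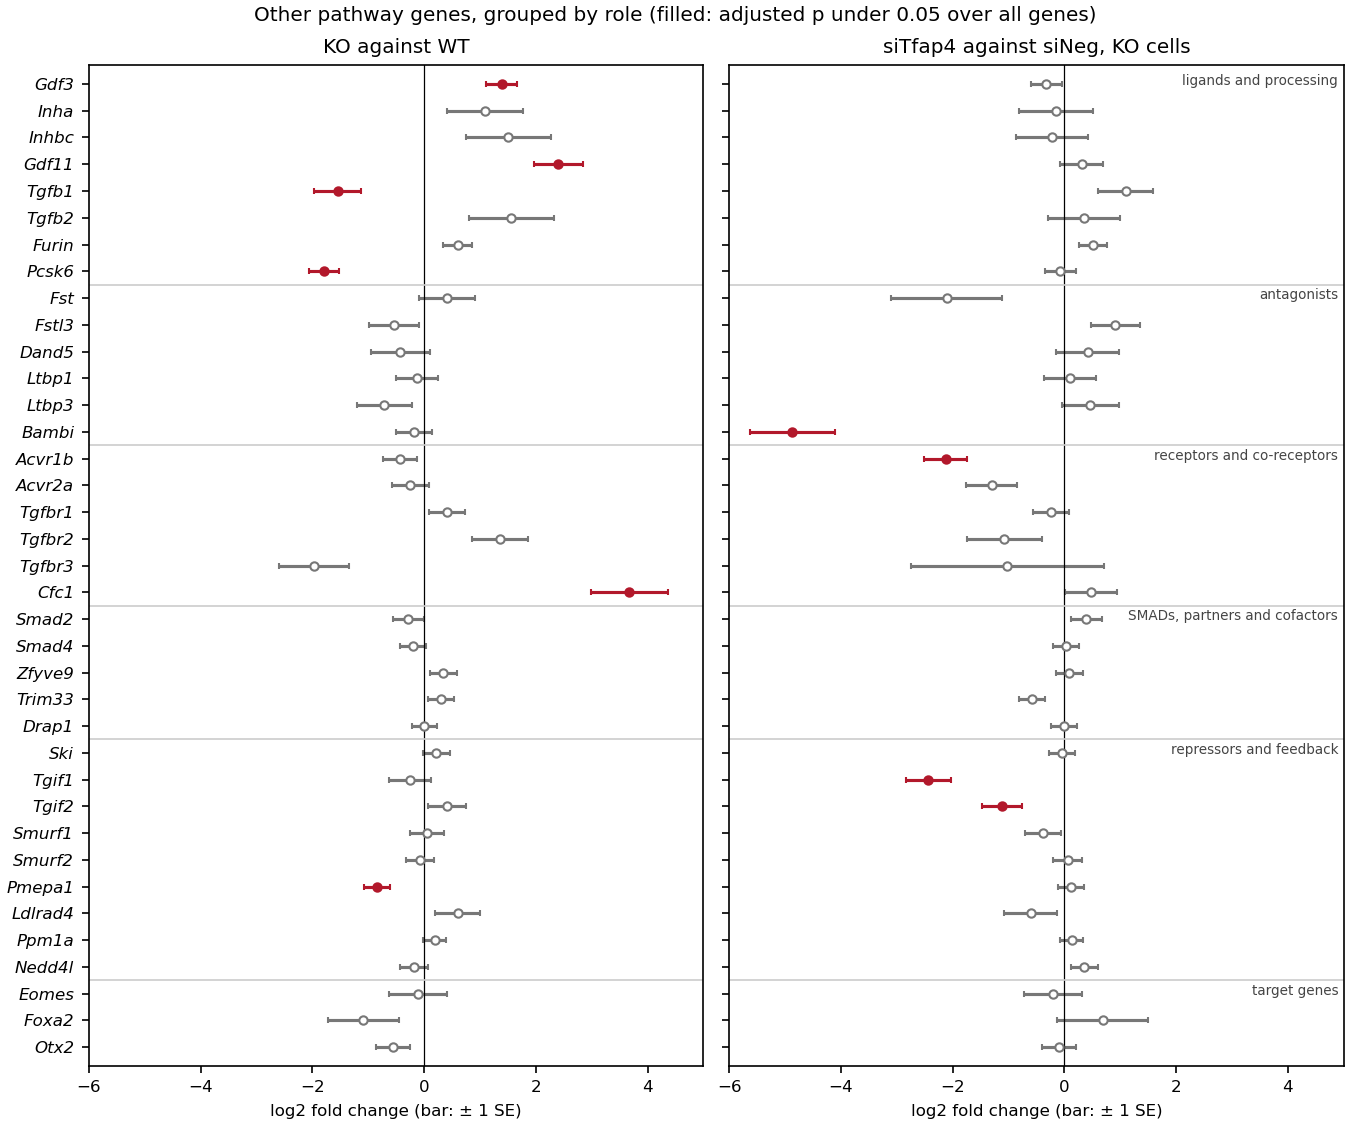
Log2 fold change (x axis, with standard errors) of the other pathway genes by role, as far as reported here, KO minus WT and siTfap4 minus siNeg, with called genes marked. Calls in the first comparison go in both directions, Cfc1 being highest and Pcsk6 lowest, and in the second the called genes are all lower, Bambi most.

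Among markers of other cell types, the sums for extra-embryonic endoderm and feeder fibroblast were lower in KO than in WT. The sums for mesoderm and primitive streak and for neural markers overlapped between KO and WT. The 8 markers of extra-embryonic endoderm summed to 163 to 175 CPM for WT, 22.8 to 24.8 for KO, 28.8 to 39.6 for siNeg and 36.3 to 55.5 for siTfap4. Of these 8 genes 6 were called lower in KO (median log2 fold change -3.02), the median was -0.06 in siTfap4 against siNeg, and none was at 0 throughout a group. Feeder fibroblast markers (5, with 2 tested) summed to 29.0 to 50.0 CPM in WT, 10.2 to 20.2 in KO, 10.6 to 12.3 in siNeg and 7.19 to 10.1 in siTfap4. Thy1 made up most of each sum, at 26.5 and 48.3 CPM in WT and 9.56 and 19.7 in KO. Every other marker of this list was at 1.71 CPM or less in each library. Both tested markers were called lower in KO. Of the 5, 1 was at 0 in WT (Lum), 1 in KO (Col1a2) and 1 in siNeg (Lum), and both of these were in siTfap4. The 5 mesoderm and primitive streak markers, of which 2 were tested, summed to 3.20 to 9.02 CPM in WT, 3.36 to 4.21 in KO, up to 3.60 in siNeg and 2.55 to 4.01 in siTfap4, where 1 was at 0. The 4 neural markers summed to 25.8 to 62.2 CPM in WT, 36.2 to 41.7 in KO, 31.2 to 40.9 in siNeg and 28.2 to 36.3 in siTfap4, with 1 called higher and 1 lower in KO. These neural sums hide differences in both directions. Pax6 stood at 0.41 and 0.48 CPM in WT and 15.5 and 15.9 in KO, and Neurod1 at 53.1 and 12.6 in WT and 9.94 and 9.73 in KO. The means of Sox1 (7.43 to 8.21 CPM) and Nes (3.26 to 5.22 CPM) were higher in KO. The 8 pluripotency markers summed to 3138 to 3202 CPM in WT and 3321 to 3504 in KO, where 1 was called lower, and between siNeg (3138 to 3251) and siTfap4 (2279 to 2337) 1 was called higher and 3 lower. The part of these cell type markers in the differences of the pathway genes was not tested.

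**Figure D4:**
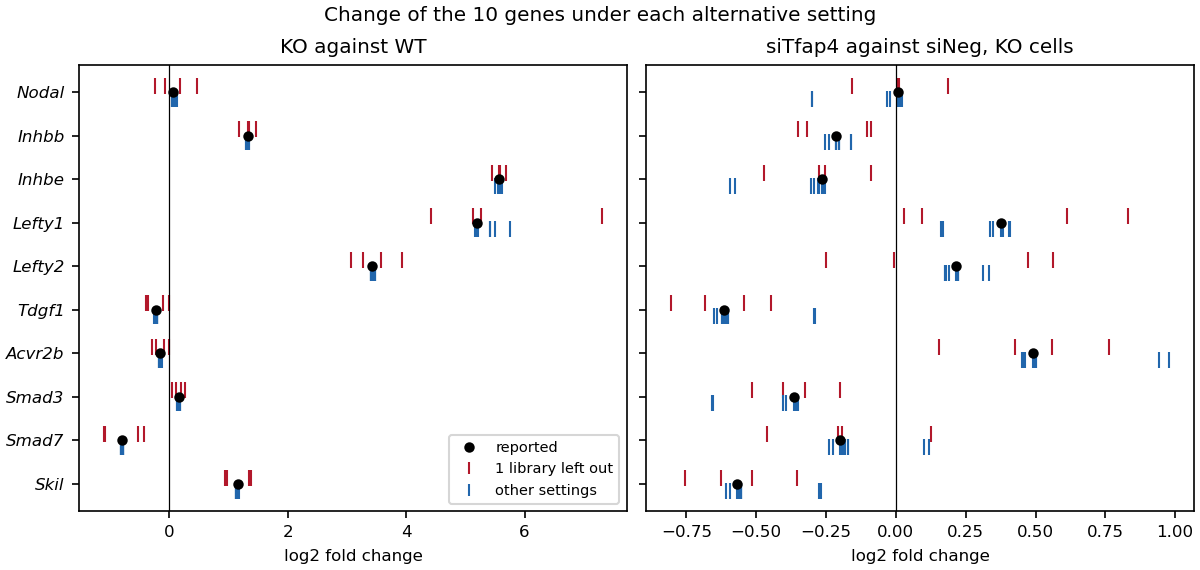
Log2 fold change of each of the 10 genes as reported (points) and under each alternative (15 in KO against WT and 14 in siTfap4 against siNeg; ticks, red where 1 library was left out and blue for other settings), for KO minus WT and siTfap4 minus siNeg. Lefty1 in KO against WT spreads most, from 4.42 to 7.30 when a WT library is left out, while Inhbe stays between 5.44 and 5.69.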

How the data were processed

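Integer gene counts of 8 QuantSeq 3′ mRNA libraries were used as deposited. Per the submitters' processing notes, reads were trimmed with Trim Galore and the build was GRCm38. What aligned and counted the reads, with which strand setting and gene models, is not given in the sources used here. Of 55421 Ensembl identifiers, 55240 had a symbol in GENCODE M21.

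Genes were filtered with filterByExpr (15137 left) and scaled by TMM factors. All 8 libraries entered 1 robust quasi-likelihood model of 4 group means (4 residual degrees of freedom) in edgeR 4.0.16 (R 4.3.3), with Benjamini-Hochberg adjustment over all tested genes and a threshold of 0.05. A standard error is the log2 fold change divided by the root of its F statistic. With 2 libraries a group no exact test of single values can reach 0.05. The p-values measure spread between duplicates, pooled over both sets. The fit was tested on simulated data. CPM were computed here from the counts.

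The 10 genes, the pathway list and the marker lists were chosen with earlier results of these data known. Named are the 10 genes, called pathway genes, the pathway gene of each role with the highest mean count, Tfap4, the cluster, and the 3 genes most alike to Lefty1, Lefty2 and Nodal (mean of at least 10 CPM). Some genes that the rule selects are not reported here. Furin, the pathway genes at 0 and the neighbours were added after their values were seen. Seed sites were searched in the longest 3′ UTR of each gene in GENCODE M21. Alternatives were DESeq2 1.42.0, RLE factors, limma-voom (limma 3.58.1), 2 other filters, each comparison fitted on its own 4 libraries, a threshold of 0.1, a replicate block, a GC correction from the last 100 bases of the transcript (lowess span 0.3), both together, the title suffix CC as a term (KO and WT, added after seeing the data), and each library left out, the lone library then being assumed to vary like the others.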

Additional observations from a re-analysis of the deposited data

How the results depend on the processing

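No called difference named in the text changed sign under any alternative. Genes called in KO against WT numbered 1506, and 610 to 857 with a library left out. In siTfap4 against siNeg they numbered 2334, 499 to 2987 with a library left out, and 3528 at a threshold of 0.1. Of the 10 genes, 4 to 5 (main 5) stayed called in KO against WT with a library left out. In siTfap4 against siNeg 0 to 1 did (main 0), and 1 was called at a threshold of 0.1 (Tdgf1), 1 with the GC correction and 1 with that correction and the replicate block (both Acvr2b). Other pathway genes called numbered 3 to 5 (main 7) and 2 to 5 (main 5) with a library left out. With the replicate block 1337 and 2064 genes were called, 5 and 0 of the 10 genes and 7 and 5 other pathway genes. Deviations of same-numbered libraries correlated at -0.06 (KO and WT) and 0.13 (siPOOL), and no label says that a number marks a shared culture, so the numbers were not taken to pair the libraries. With the title suffix CC as a term, an alternative chosen after seeing the data, 1443 genes were called in KO against WT, with 5 of the 10 genes and 7 other pathway genes as before. Values of single genes kept their side of the threshold in 705 cases, passed it in 5 and lost it in 31. In KO against WT the sign of an uncalled difference changed for Nodal (2 of 15 alternatives), Drap1 (7) and Bambi (1). In siTfap4 against siNeg it changed for Nodal (5 of 14), Lefty2 (2), Smad7 (3), Drap1 (3), Ppm1a (2), Otx2 (4) and Zfp607b (4). The cause of these shifts was not tested, other than that leave-outs use fewer libraries. Groups of 2 are too small for a check of single outlying libraries, and WT levels of Inhbe and Cfc1 rest on few counts.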

Other observations

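Genes beside the called ones were also read from the fit (edgeR's quasi-likelihood test, adjusted over all genes), with windows of 100 kb chosen after the values were seen. Tmem63a, which encodes a membrane channel protein and starts at 180942344 on the same strand of chromosome 1, after the end of Lefty1 at 180938400, differed by 2.39 (SE 0.29, adjusted p = 9.43e-05). The Tmem63a call held under each of 15 alternatives, with values from 2.29 to 2.50. Of 9 tested genes within 100 kb of Inhbe, 2 were called higher in KO cells, where 5.99% of all tested genes were. Gli1, a transcription factor gene of the hedgehog pathway at 127329882 to 127341974 on chromosome 10, differed by 1.65 (SE 0.24, adjusted p = 0.000415) and kept its call under the 15 alternatives. Arhgap9 differed by 1.35 (SE 0.35, adjusted p = 0.0213), a call lost with any 1 library left out (adjusted p from 0.0566 to 0.161).

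The genes most alike to the Lefty pair over the 8 libraries, by Pearson r of log2 CPM among 8635 genes, were the same for both. Zfp607b, a zinc finger gene, had r of 0.99 with each, Pla2g2e, a secreted phospholipase gene, likewise 0.99, and the pair had 0.99 with each other. The 8 points share libraries and fall into 1 low group and 3 high ones, so r describes that split. Zfp607b stood at 6.91 and 4.65 CPM in WT and 17.8 and 17.6 in KO, a difference of 1.60 (SE 0.31), and Pla2g2e at 3.01 and 1.45 against 28.6 and 21.8, a difference of 3.46 (SE 0.38). For Nodal the most alike genes were Ttc33 (r of 0.92), Tprkb (0.91) and Sall4 (0.89), none of them called in either comparison.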
